A study of Mus musculus with 32 samples.

Results

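NF-κB is a family of dimeric transcription factors. The 10 genes described here encode its 5 DNA-binding subunits and 5 of the regulators that NF-κB itself switches on. These 5 are called inhibitors below for short, although the nuclear IκB proteins among them can also help to activate target genes. They were chosen by name: the subunit genes Nfkb1, Nfkb2, Rela, Relb and Rel, the cytoplasmic inhibitor genes Nfkbia and Nfkbie, the genes of the nuclear IκB proteins Nfkbiz and Bcl3, and Tnfaip3, which encodes the ubiquitin-editing enzyme A20. All 10 were found among the 18588 genes of the deposited table. In microglia from rTg4510 tau transgenic mice, 6 of the 10 passed the test for a higher level than in wild type (WT) microglia at 1 or more ages, and 0 passed it for a lower level. Of all genes, 14.1% passed for a higher and 11.1% for a lower level at 1 or more ages. The higher genes were Nfkbia and Tnfaip3, the nuclear IκB genes Nfkbiz and Bcl3, and the subunit genes Nfkb2 and Relb. The transcripts of Rela, Rel, Nfkb1 and Nfkbie passed at no age.

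In resting cells NF-κB dimers are held in the cytoplasm by IκB proteins such as IκBα, the product of Nfkbia. Signals from Toll-like, interleukin-1 or TNF receptors activate the IκB kinase complex, which marks IκBα for destruction and frees dimers such as p50/RelA (from Nfkb1 and Rela) to enter the nucleus. Among the first genes that these dimers transcribe are Nfkbia and Tnfaip3, whose products end the signal, so that their transcripts are often read as signs of recent NF-κB activity. A slower, non-canonical arm processes p100, the product of Nfkb2, to p52, the partner of RelB. Microglia, the resident macrophages of the brain, use this pathway to induce cytokines and chemokines.

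Microglia had been captured with CD11b magnetic beads from pooled forebrains of several female mice per library, and each group held 4 biological replicates of this kind. rTg4510 mice carried human tau with the P301L mutation under a tetracycline-responsive element together with a CaMKIIα-driven transactivator that directs its expression to forebrain neurons. The WT mice were littermates with neither transgene (strain label 129/FVB F1), and both genotypes were sampled at 2, 4, 6 and 8 months of age. After the authors' quality control 28 of 32 libraries remained, and the results below rest on these unless all 32 or the excluded libraries are named. Each genotype kept all 4 at the ages of 2 and 6 months but 3 at the ages of 4 and 8 months. Gene signals on the log2 scale had been normalized by the authors to a common median, which was 5.63 in every library. The table gives no read totals, so no depth per library was computed from it, and the number of libraries limits the precision. Since the signals were not divided by gene length, each gene is compared only with itself across groups. As these are bulk samples, more RNA per cell and a larger share of cells with the transcript cannot be told apart.

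The microglia label was checked first. The 10 microglia markers examined were all measured, from Aif1 (5.85 to 6.6) to Cx3cr1 (13.02 to 14.05) over the 28 libraries, and 4 of them (Itgam, Tmem119, Sall1 and Gpr34) were called lower in rTg4510 at 1 or more ages. For 9 lists of markers of other cell types, the median log2 fold change at 6 months was below 0 in each (-1.51 to -0.34). It was also below 0 in each at 4 months (-0.94 to -0.31) and 8 months (-1.37 to -0.19). At 2 months it was 0.14 for neutrophil, 0.08 for B cell and 0.01 for oligodendrocyte markers and -0.37 to -0.04 for the other lists. Of 11 neutrophil markers, 8 were called lower and 0 higher at 6 months, where their summed log2 level was 10.24 to 10.35 in rTg4510 and 10.48 to 11.08 in WT. The summed neutrophil level was likewise 10.16 to 10.57 against 10.94 to 11.12 at 8 months (8 of 11 called lower). Of 6 monocyte markers, 4 were called lower and 1 higher at 6 months (3 and 0 with the replicate number as a block; Vcan, the higher one, then had an FDR of 0.0591), and the summed levels overlapped at 2, 6 and 8 months. Markers of B, T and NK cells differed in both directions. Of 7 B cell markers, 3 were called lower at 1 or more ages, while Cd22 was called higher at each age (0.88, 2.69, 3.14 and 3.32). Their summed level was 12.8 to 12.96 in rTg4510 against 12.39 to 12.51 in WT at 2 months, 12.48 to 12.55 against 12.2 to 12.4 at 4 months, 12.33 to 12.51 against 12.03 to 12.5 at 6 months and 12.23 to 12.44 against 12.05 to 12.26 at 8 months. This sum is dominated by Ighm, which ranged from 12 to 12.93 over the 28 libraries. The median log2 fold change of the 7 B cell markers was 0.08, -0.76, -0.34 and -0.29 at the successive ages. Of 6 T and NK cell markers, 1 was called lower at 1 or more ages, and Klrb1c, an NK cell receptor gene, was called higher at each age (0.89, 1.94, 2.31 and 1.53). Their summed level was above WT without overlap at 4 months (6.81 to 7.08 against 6.14 to 6.79) and at 6 months (7.08 to 7.31 against 6.1 to 6.96), but overlapped at 2 months (6.27 to 6.94 against 6.17 to 6.69) and 8 months (6.63 to 7.58 against 5.86 to 7.09). Over the 28 libraries the defining genes Ms4a1, Trac and Lck ranged from 1.31 to 5.63, 1.23 to 4.49 and 1.41 to 4.24, their low ends near the lowest value of a library (1.23 to 1.92). Of 6 astrocyte markers, 3 were called lower at 1 or more ages and 1, Gfap, higher. Their summed level was 9.36 to 9.69 in rTg4510 against 10.09 to 10.37 in WT at 6 months. Of 6 endothelial markers, 2 were called lower at 1 or more ages and 1, Flt1, higher, and their summed levels overlapped at each age. The part of other cell types in the results below was not tested.

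The sequences just upstream of the transcription starts of these genes are shown because several of the inhibitors are known direct targets of NF-κB. RefSeq promoter windows (GRCm38.p6, the same mouse build as in the submitters' processing notes), which run from 250 bases before to 50 bases after a start, were on hand for 7 of the 10 genes. Nfkb1, Relb and Nfkbiz were not analysed here in this respect. The κB consensus, searched on both strands, was found in 1 or more windows of 6 of the 7 genes, against 11.9% of the genes of the table that have a window. By window it was found in 8 of 10, against 10.1%. A match is a description of the letters and not evidence of binding. The 250 bases before the start are printed 5′ to 3′ on the strand of the gene, and capitals mark matches to the κB consensus on either strand. The first line is Nfkbia (chr12:55492648-55492897, minus strand), the second Tnfaip3 (chr10:19015411-19015660, minus strand), the third the first of 3 Nfkb2 windows (chr19:46304487-46304736, plus strand), the fourth Rel (chr11:23770970-23771219, minus strand) and the fifth Rela (chr19:5637291-5637540, plus strand), the gene without a match.
Nfkbia: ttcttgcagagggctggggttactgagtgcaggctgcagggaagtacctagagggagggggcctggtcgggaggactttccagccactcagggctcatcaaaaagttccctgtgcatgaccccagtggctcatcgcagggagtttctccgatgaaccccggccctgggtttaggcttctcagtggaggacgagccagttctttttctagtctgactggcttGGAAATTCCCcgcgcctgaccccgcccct
Tnfaip3: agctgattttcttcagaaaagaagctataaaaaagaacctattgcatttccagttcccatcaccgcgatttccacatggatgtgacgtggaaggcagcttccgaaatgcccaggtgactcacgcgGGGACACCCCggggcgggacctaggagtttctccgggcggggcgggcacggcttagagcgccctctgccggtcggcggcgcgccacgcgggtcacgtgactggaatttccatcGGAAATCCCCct
Nfkb2: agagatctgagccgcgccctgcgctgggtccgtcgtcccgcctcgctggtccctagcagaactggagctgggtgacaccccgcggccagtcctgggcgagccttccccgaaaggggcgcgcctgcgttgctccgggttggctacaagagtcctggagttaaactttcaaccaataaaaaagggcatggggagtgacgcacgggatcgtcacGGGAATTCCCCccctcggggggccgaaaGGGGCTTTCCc
Rel: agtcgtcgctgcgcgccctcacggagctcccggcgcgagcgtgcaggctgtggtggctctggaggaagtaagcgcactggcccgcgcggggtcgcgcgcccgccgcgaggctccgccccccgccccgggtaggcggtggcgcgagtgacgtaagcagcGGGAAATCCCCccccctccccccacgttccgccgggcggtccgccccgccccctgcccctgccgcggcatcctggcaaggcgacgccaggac
Rela: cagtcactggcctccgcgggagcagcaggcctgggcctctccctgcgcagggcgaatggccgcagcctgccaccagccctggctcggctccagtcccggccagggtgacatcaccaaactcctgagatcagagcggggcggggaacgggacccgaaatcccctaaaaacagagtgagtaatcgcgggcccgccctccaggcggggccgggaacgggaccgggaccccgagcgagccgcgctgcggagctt
In Nfkbia the match begins at position -29 from the start and reads GGGAATTTCC on the opposite strand. The printed window of Tnfaip3 has matches at positions -125 and -12, while window 2 of this gene (chr10:19011964-19012213) has 0. The printed window of Nfkb2 has matches at -39, -38 and -11, of which the first overlaps the second, and Rel an overlapping pair at -92 and -91. Nfkbie has 1 match at -106 and Bcl3 1 match at position 3 after the start. The genes with matches include both called ones (Nfkbia, Tnfaip3, Nfkb2, Bcl3) and ones not called at any age (Rel, Nfkbie).

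The genotypes were then compared at each age. A linear model of the 8 group means was fitted to every gene with limma, P values were adjusted by the Benjamini-Hochberg method over all 18588 genes to a false discovery rate (FDR), and a gene was called when its FDR was under 0.05 and its change above 1.5 fold. At 2 months limma called 0 of the 10 genes, where 1.98% of all genes were called and 1.58% called higher, and limma's moderated variance called 1 (Tnfaip3, FDR 0.0412). With the replicate number as a block 3 were called higher, Nfkbia (FDR 0.0101), Nfkbiz (FDR 0.0172) and Tnfaip3 (FDR 0.00258). The block called 294 of all 18588 genes higher and 82 lower. At this age the numbers were not taken to pair the libraries. Without the block 6 genes were called at 4 months, all higher in rTg4510, against 13.8% of all genes called and 9.47% called higher. At 6 months 4 genes were called higher (19.8% of all genes called, 11.3% called higher), and at 8 months 6 genes (15.9% called, 10.5% called higher). By the FDR alone the genes that passed numbered 0, 7, 7 and 7 at the successive ages, against 6.03%, 23.2%, 34.1% and 25.7% of all genes. At an unadjusted P under 0.05 they numbered 5, 7, 7 and 8, against 16.5%, 33.6%, 43% and 35.4%. The median log2 fold change of the 10 genes was 0.22, 0.66, 0.47 and 0.76 at the successive ages, beside 0.01, -0.04, -0.04 and -0.01 over all genes. Nfkbia, Nfkbiz, Tnfaip3 and Bcl3 were the 4 called at 4, 6 and 8 months alike, and Nfkb2 and Relb joined them at 4 and 8 months. Unless another fit is named, each SE, interval and FDR below comes from the fit without the block.

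**Figure D1:**
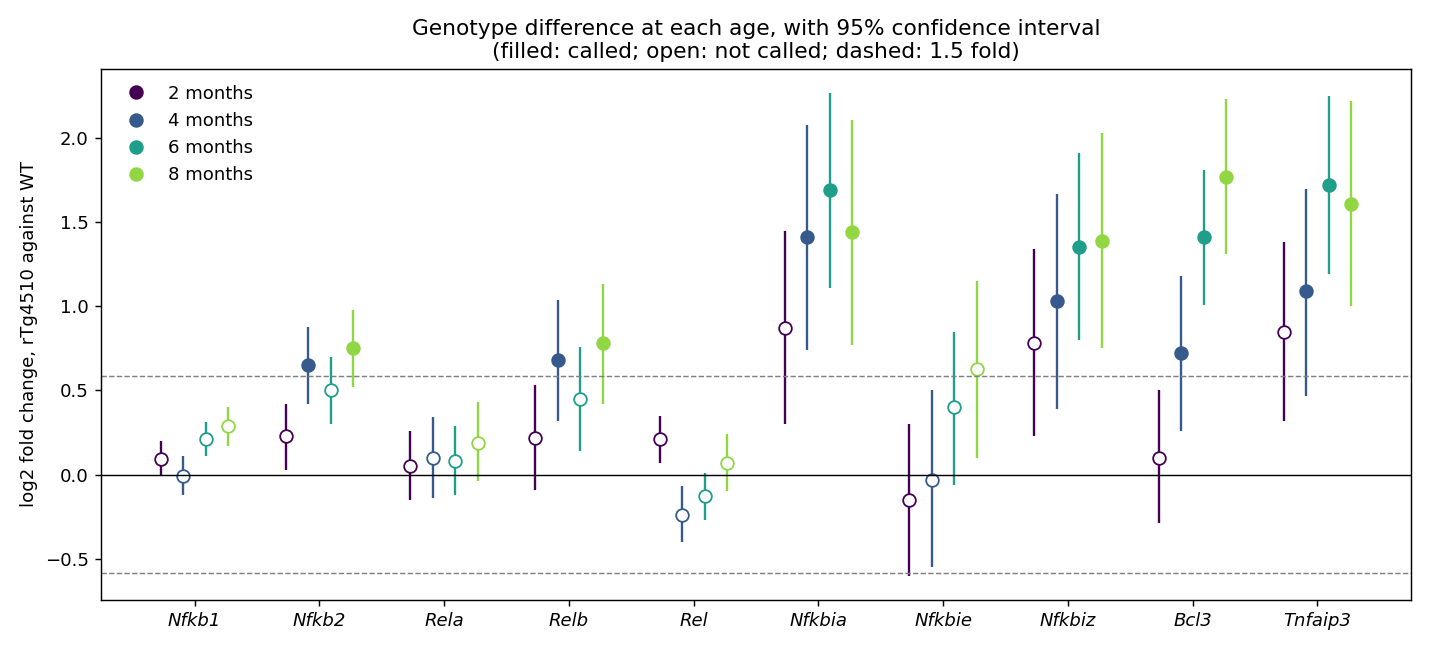
log2 fold change of each gene in rTg4510 against WT (y axis) with its 95% confidence interval, at 2, 4, 6 and 8 months. Filled points were called (FDR under 0.05 and above 1.5 fold), open points were not, and dashed lines mark 1.5 fold. Nfkbia, Nfkbiz, Bcl3 and Tnfaip3 are filled at 4, 6 and 8 months, and Rela, Rel, Nfkb1 and Nfkbie at none.

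Nfkbia (chromosome 12, 55489409 to 55492647) encodes IκBα, the main cytoplasmic brake on NF-κB. At 2 months its log2 signals were 7.83, 8.35, 8.63 and 9.1 in rTg4510 and 7.37, 7.51, 7.54 and 8 in WT. One rTg4510 library therefore lay below the highest WT library, and the difference of 0.87 (SE 0.277, FDR 0.0716, 95% confidence interval 0.3 to 1.45) was not called. At 4 months the values were 8.76, 9.01 and 9.17 against 7.27, 7.54 and 7.91, and at 6 months 8.79, 8.89, 9.36 and 9.39 against 6.77, 7.13, 7.87 and 7.9. At 8 months they were 8.8, 8.83 and 9.29 against 7.14, 7.5 and 7.96. From 4 months on every rTg4510 library stood above every WT library, by 2.66 fold at 4 months (log2 1.41, SE 0.32, FDR 0.00234), 3.23 fold at 6 months (1.69, SE 0.277, FDR 5.45e-05) and 2.71 fold at 8 months (1.44, SE 0.32, FDR 0.00174).

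Tnfaip3 (chromosome 10, 19000910 to 19015410) encodes A20, which edits ubiquitin chains on signalling proteins upstream of the IκB kinases. Its log2 signals at 2 months were 8.87, 8.94, 9.03 and 9.62 in rTg4510 and 8.07, 8.08, 8.25 and 8.66 in WT. The groups did not overlap, but the difference of 0.85 (SE 0.254, FDR 0.0513, interval 0.32 to 1.38) missed the threshold. At 4 months the levels were 9.27, 9.37 and 10.11 against 8.22, 8.57 and 8.7, a 2.12 fold difference (log2 1.09, SE 0.293, FDR 0.00916). At 6 months they were 9.57, 9.82, 10.32 and 10.36 against 7.85, 7.9, 8.6 and 8.84, which was 3.3 fold (1.72, SE 0.254, FDR 1.49e-05). The 8 month values were 9.79, 10.16 and 10.27 against 8.17, 8.5 and 8.71 (3.05 fold, log2 1.61, SE 0.293, FDR 0.000234). Every rTg4510 library exceeded every WT library at each of the 4 ages.

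Nfkbiz (chromosome 16, 55811375 to 55838954) encodes IκBζ, a nuclear IκB protein that binds p50 and is needed for a set of secondary NF-κB target genes. At 2 months its log2 signals were 7.95, 8.09, 8.11 and 8.59 in rTg4510 and 7.15, 7.25, 7.3 and 7.91 in WT, which do not overlap (difference 0.78, SE 0.266, FDR 0.0993, interval 0.23 to 1.34, not called). At 4 months they were 8.38, 8.48 and 8.91 against 7.12, 7.56 and 8 (2.04 fold, SE of the log2 difference 0.307, FDR 0.0182). At 6 months they were 8.57, 8.59, 9.01 and 9.11 against 6.78, 7.24, 7.9 and 7.96 (2.55 fold, SE 0.266, FDR 0.000403). In both genotypes the libraries of 6 months fell into a lower and a higher pair for Nfkbia, Nfkbiz and Tnfaip3 alike. Replicates 1 and 2 were low and replicates 3 and 4 high, and these 3 genes had the largest SE of the 10. With the replicate number as a block the SE at 6 months was 0.16 for Nfkbia, 0.159 for Nfkbiz and 0.113 for Tnfaip3. At 8 months the Nfkbiz values were 8.81, 9.04 and 9.07 against 7.06, 7.7 and 7.99 (2.62 fold, SE 0.307, FDR 0.00161).

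Bcl3 (chromosome 7, 19808462 to 19822824) encodes another nuclear IκB protein, which binds p50 and p52 homodimers and can turn them into activators. At 2 months the genotypes overlapped, with log2 signals of 3.21, 3.8, 3.94 and 4.02 in rTg4510 and 3.51, 3.51, 3.75 and 3.77 in WT (difference 0.1, SE 0.191, interval -0.29 to 0.5). At 4 months the values were 3.72, 3.86 and 4.35 against 2.86, 3.42 and 3.47, or 1.65 fold (log2 0.72, SE 0.221, FDR 0.0208). At 6 months they had separated to 4.65, 4.68, 4.79 and 4.81 against 3.02, 3.26, 3.3 and 3.71, a 2.65 fold difference (1.41, SE 0.191, FDR 5.11e-06). At 8 months they were 5.11, 5.3 and 5.33 against 3.13, 3.45 and 3.85, the largest difference of the 10 genes at that age with 3.41 fold (1.77, SE 0.221, FDR 2.26e-06). The WT levels lie near the low end of the scale. Read as counts from the spacing of the lowest values, an inference from the table, they stood 1.97 to 6.03 counts above the lowest value of their library, against 18 to 20 counts in rTg4510 at 8 months, and the size of the fold change depends on how such low values were made.

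Nfkb2 (chromosome 19, 46300994 to 46312400) encodes p100, the precursor of p52 and itself an inhibitor of RelB dimers. At 2 months its log2 signals were 4.31, 4.51, 4.52 and 4.52 in rTg4510 and 4.16, 4.21, 4.29 and 4.3 in WT (difference 0.23, SE 0.0952, FDR 0.221, interval 0.03 to 0.42). At 4 months they were 4.66, 4.72 and 4.87 against 3.95, 4.01 and 4.34 (1.57 fold, log2 0.65, SE 0.11, FDR 0.000125). At 6 months they were 4.49, 4.7, 4.9 and 4.9 against 4.15, 4.2, 4.25 and 4.38. This difference of 0.5 (SE 0.0952, FDR 0.00027) passed the FDR but, at 1.42 fold, not the 1.5 fold threshold. At 8 months the values were 5.05, 5.1 and 5.25 against 4.23, 4.44 and 4.49 (1.68 fold, log2 0.75, SE 0.11, FDR 1.91e-05). The libraries of the genotypes did not overlap at any of the 4 ages. A long non-coding RNA gene, 4833438C02Rik, lies within the span of Nfkb2, and whether the authors counted reads by strand is not given in the sources used here, so reads of both genes may not be told apart.

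Relb (chromosome 7, 19606217 to 19629438) encodes the partner of p52. Its log2 signals overlapped at 2 months, with 4.18, 4.23, 4.57 and 4.76 in rTg4510 and 4.06, 4.1, 4.13 and 4.56 in WT (difference 0.22, SE 0.149, interval -0.09 to 0.53). At 4 months they were 4.56, 4.86 and 5.01 against 3.95, 4.14 and 4.3, or 1.6 fold (0.68, SE 0.172, FDR 0.00558). At 6 months they were 4.56, 4.57, 4.6 and 4.68 against 3.78, 4.2, 4.27 and 4.37 (0.45, SE 0.149, FDR 0.0247). The 6 month change of 1.36 fold was below the fold threshold, as for Nfkb2. At 8 months the levels were 4.62, 5.01 and 5.06 against 4.09, 4.13 and 4.14, or 1.71 fold (0.78, SE 0.172, FDR 0.00165), with no overlap from 4 months on.

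The subunits of the canonical dimers moved little. Rela (chromosome 19, 5637442 to 5648134), which encodes p65, the main activating subunit, had log2 signals of 6.72 to 7.15 (median 6.95) in the 14 rTg4510 libraries and 6.57 to 7.12 (median 6.8) in the 14 WT libraries. Its differences were 0.05, 0.1, 0.08 and 0.19 at the successive ages, the genotypes overlapped at each, and the intervals (-0.15 to 0.26, -0.14 to 0.34, -0.12 to 0.29 and -0.04 to 0.43) stay inside 1.5 fold in both directions. Nfkb1 (chromosome 3, 135584655 to 135691969), which encodes p105 and p50, had signals of 7 to 7.31 in rTg4510 and 6.79 to 7.15 in WT. It passed the FDR at 6 months (0.21, SE 0.0487, FDR 0.00193) and 8 months (0.29, SE 0.0562, FDR 0.000494), with no overlap of libraries, but its change was 1.16 and 1.22 fold. At 2 and 4 months the differences of Nfkb1 were 0.09 and -0.01.

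Rel (chromosome 11, 23736847 to 23770969) encodes c-Rel, a subunit prominent in myeloid and lymphoid cells. It was the only one of the 10 genes with an FDR under 0.05 in the lower direction. At 4 months its log2 signals were 8.78, 8.85 and 8.9 in rTg4510 and 9.03, 9.06 and 9.15 in WT. All 3 rTg4510 libraries were below the WT libraries, but the change was 0.848 fold (-0.24, SE 0.0797, FDR 0.0352) and not called. At 2 months the difference was 0.21 (SE 0.069, FDR 0.0847), at 6 months -0.13 (FDR 0.158) and at 8 months 0.07 (FDR 0.579), with overlapping libraries at each.

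Nfkbie (chromosome 17, 45555700 to 45563169) encodes IκBε, another cytoplasmic inhibitor that holds c-Rel and RelA dimers. At 2 and 4 months its libraries overlapped, with differences of -0.15 (SE 0.217, interval -0.6 to 0.3) and -0.03 (SE 0.251, interval -0.55 to 0.5). At 6 months its log2 signals were 5.88, 5.97, 6.04 and 6.36 in rTg4510 and 5.41, 5.7, 5.77 and 5.79 in WT (difference 0.4, SE 0.217, FDR 0.171, interval -0.06 to 0.85). At 8 months they were 6.02, 6.17 and 6.54 against 5.53, 5.62 and 5.7 (0.63, SE 0.251, FDR 0.0733, interval 0.1 to 1.15). The groups did not overlap at 6 and 8 months, yet neither difference was called. The SE of this gene is raised by 1 WT library of 2 months that read 7.05, where the other 3 read 5.69, 5.81 and 5.89, because the model shares 1 estimate of the spread over all groups. Without that library the 8 month difference was 0.63 with an FDR of 0.00529.

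**Figure D2:**
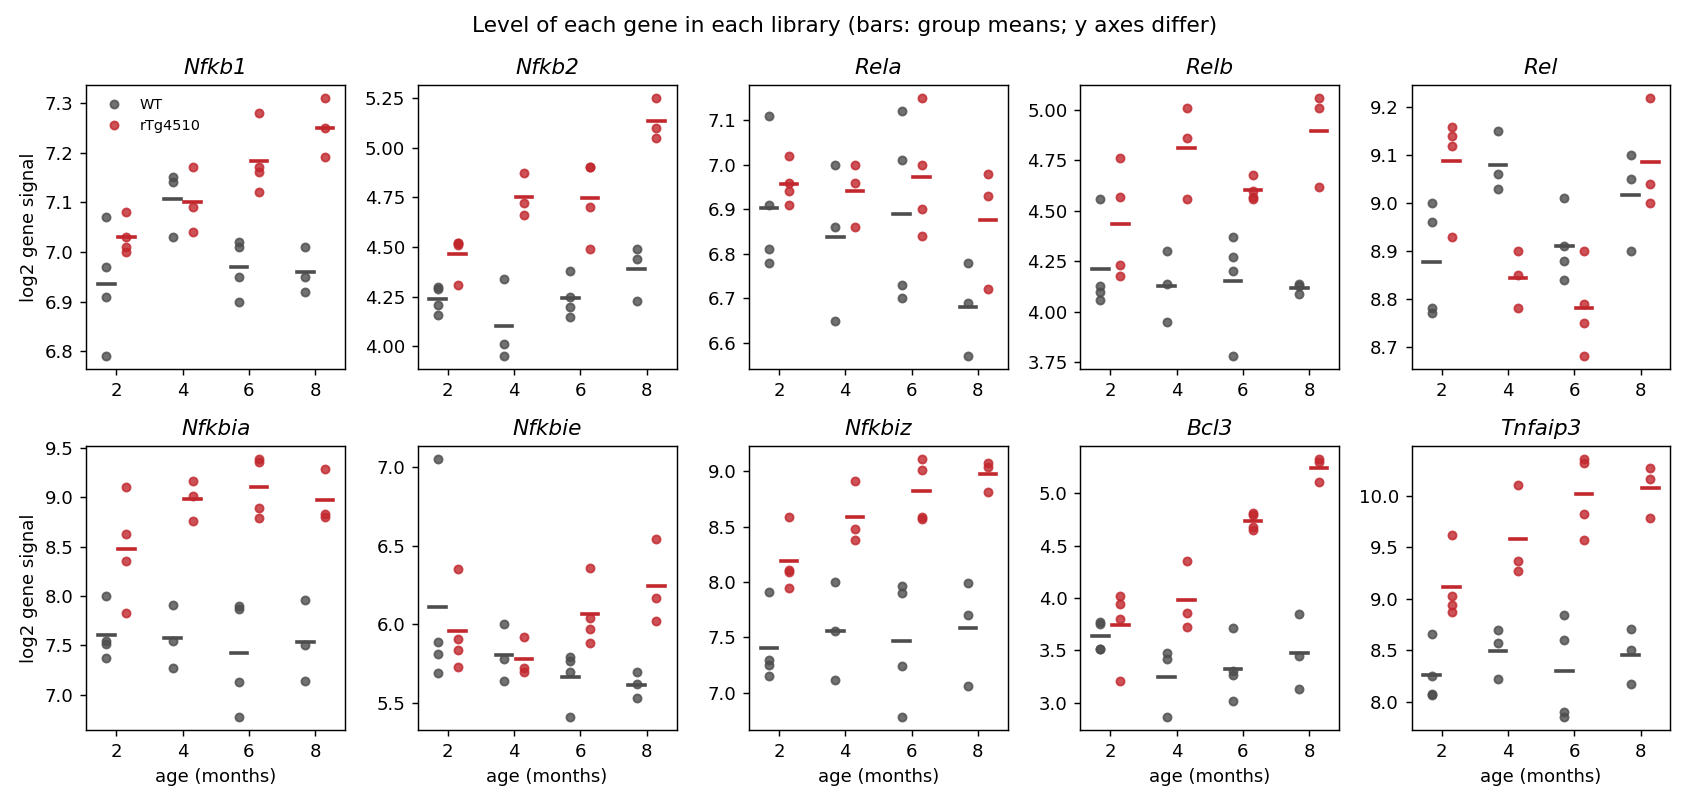
log2 gene signal of each gene (1 panel per gene, y axes differ) in each of the 28 libraries against age in months, WT in grey and rTg4510 in red, with a bar at each group mean. The red points of Nfkbia, Nfkbiz, Tnfaip3 and Bcl3 lie above the grey ones from 4 months on, Rela overlaps at all ages, and Rel lies below WT at 4 months.

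Counted over the 10 genes, every rTg4510 library lay above every WT library for 3 genes at 2 months, 6 genes at 4 months, 8 genes at 6 months and 8 genes at 8 months. Over all genes this held for 7.49%, 19.1%, 18.2% and 21.2%. A two-sided exact permutation test of each gene on the libraries of 1 age alone, without the pooled spread, gave P = 0.0286 for the 3 genes at 2 months and the 8 at 6 months, the smallest P that 4 against 4 libraries allow. At 4 and 8 months 3 against 3 libraries cannot give less than 0.1, and adjusted over the 40 tests the smallest P was 0.104. This test could therefore not pass 0.05 once adjusted. When limma was fitted to the libraries of 1 age alone, without the spread of the other groups, it called 0, 1, 4 and 4 of the 10 genes at 2, 4, 6 and 8 months. The call at 4 months was Nfkbia, and the 2 lost at 8 months were Nfkbia (FDR 0.0525) and Nfkbiz (FDR 0.0576). The share of all genes called in these fits was not computed, so the counts cannot be set beside it.

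Whether the genotype difference changed with age was tested as the difference between the contrasts of 2 ages in the same model. For Bcl3 it grew by 1.67 on the log2 scale from 2 to 8 months (SE 0.292, FDR 0.000774), the only one of the 10 genes called in this comparison, where 6.7% of all genes were called (9.76% by the FDR alone and 21.1% at an unadjusted P under 0.05, which 2 and 5 of the 10 passed). For Nfkb2 the growth of 0.52 (SE 0.145, FDR 0.0246) passed the FDR but not the fold threshold, and with the replicate block its FDR was 0.103. Nfkbia, Nfkbiz and Tnfaip3 differed by 0.56 (interval -0.32 to 1.45), 0.61 (-0.24 to 1.46) and 0.76 (-0.05 to 1.57) between these ages, and none of these changes was called. With the replicate block that of Tnfaip3 was called (FDR 0.0216). Between 2 and 4 months limma called 0 of the 10 genes (4.66% of all genes called). By the FDR alone 1 of the 10 passed (7.33% of all genes) and at an unadjusted P under 0.05 3 of the 10 (19.6%), and Rel changed by -0.45 (SE 0.105, FDR 0.0115), short of 1.5 fold. Between 4 and 6 months 0 were called (0.156% of all genes; by the FDR alone 0 against 0.172%, at an unadjusted P under 0.05 2 against 8.15%) and between 6 and 8 months 0 (0% of all genes, also by the FDR alone; at an unadjusted P under 0.05 0 against 4.52%).

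In WT microglia limma called 0 of the 10 genes at 4 against 2 months, where 0.0484% of all genes were called (by the FDR alone 0 against 0.0861%, at an unadjusted P under 0.05 2 against 10.2%). It called 0 at 8 against 2 months, where 1.27% were called (0 against 4.21%, and 1 against 19.2%). In rTg4510 0 were called at 4 against 2 months (6.39% of all genes; by the FDR alone 1 against 15.2%, at an unadjusted P under 0.05 3 against 27.2%) and 3 at 8 against 2 months (10.5%; by the FDR alone 5 against 21.7%, at an unadjusted P under 0.05 6 against 32.2%). These 3 were Bcl3 (2.84 fold, log2 1.5, FDR 1.6e-05), Tnfaip3 (1.94 fold, log2 0.96, FDR 0.0151) and Nfkb2 (1.59 fold, log2 0.67, FDR 5.93e-05). Nfkbiz differed by 0.79 in this comparison (FDR 0.0559) and Nfkbia by 0.49 (FDR 0.278), neither of them called. The comparisons of 4 and 8 months share the libraries of 2 months.

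A group of 3 inhibitors moved together from library to library, which the rule of selection did not use. After the mean of its group was taken from each library, the deviations of Nfkbia and Nfkbiz correlated with r = 0.901 over the 28 libraries, those of Nfkbia and Tnfaip3 with 0.869 and those of Nfkbiz and Tnfaip3 with 0.91. Relb correlated with these 3 genes at 0.3 to 0.492, Rel at 0.255 to 0.358, Nfkbie at 0.125 to 0.286, Bcl3 at 0.118 to 0.232 and Nfkb2 at 0.103 to 0.187, while Nfkb1 (-0.271 to -0.241) and Rela (-0.293 to -0.212) were below 0. These correlations describe libraries that share their preparation and are given without a test. The 3 inhibitors also followed the immediate early and heat shock genes, transcripts such as Dusp1 and Klf6 that are known to change within minutes of handling or stimulation. Over 21 such genes the median correlation was 0.828 for Nfkbia, 0.834 for Nfkbiz and 0.789 for Tnfaip3, and between -0.241 (Rela) and 0.281 (Relb) for the other 7 genes. Over the 28 NF-κB target genes described below it was 0.606 for Nfkbia, 0.638 for Nfkbiz and 0.61 for Tnfaip3.

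**Figure D3:**
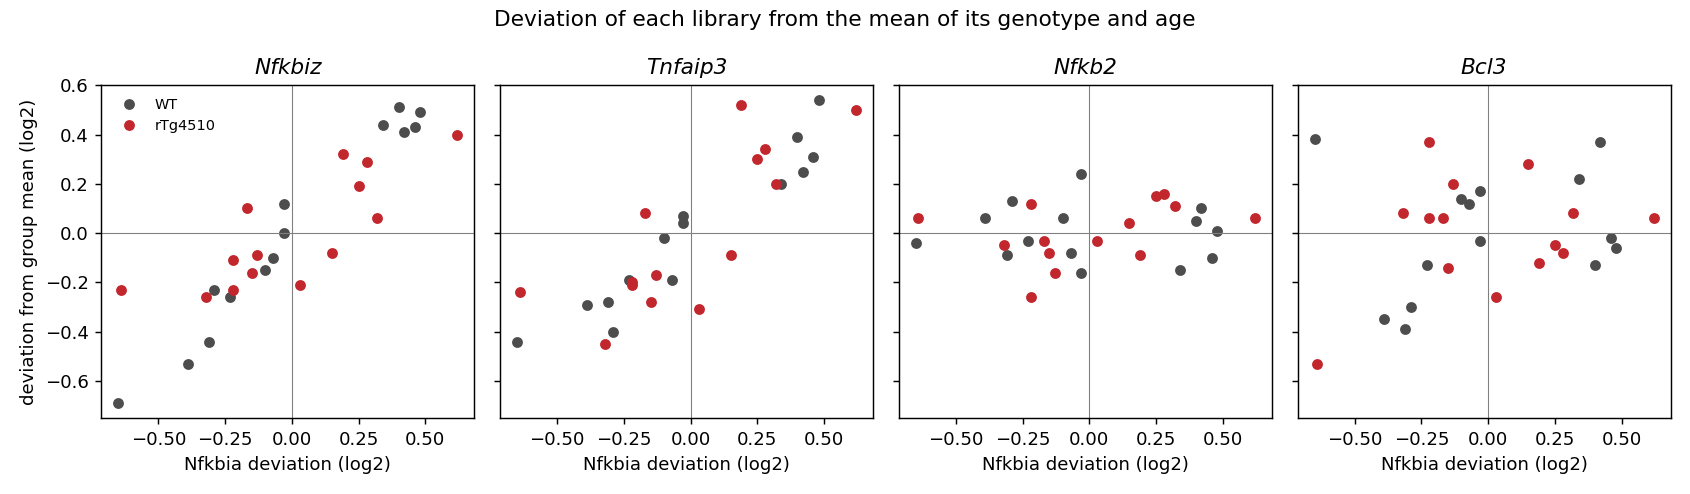
Deviation of each of the 28 libraries from the mean of its genotype and age (log2), with Nfkbia on the x axis and Nfkbiz, Tnfaip3, Nfkb2 and Bcl3 on the y axes, WT in grey and rTg4510 in red. Nfkbiz (r = 0.901) and Tnfaip3 (r = 0.869) rise along Nfkbia in both genotypes, while Nfkb2 (r = 0.147) and Bcl3 (r = 0.232) do not line up with it.

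The level of these immediate early and heat shock genes was set beside the genotype difference. The summed log2 level of the 21 genes was 18.2 to 18.58 in rTg4510 and 18.19 to 18.44 in WT at 2 months, 17.85 to 18.05 against 17.97 to 18.45 at 4 months, 17.78 to 18.35 against 17.79 to 18.57 at 6 months and 17.72 to 18.06 against 17.83 to 18.34 at 8 months. The ranges overlapped at each age, and the sum, which the most abundant genes dominate, was not higher in rTg4510 at 4, 6 or 8 months. The median log2 fold change of the 21 genes, which weighs each gene alike, was 0.3, -0.1, 0.2 and 0.2 at the successive ages. Single genes differed in both directions. Egr2, Egr3, Nr4a1, Atf3 and Zfp36 were called higher at 1 or more ages, and Ier5, Hspa1a, Hspa1b and Dnajb1 lower. Their part in the differences of Nfkbia, Nfkbiz and Tnfaip3 was not tested.

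Other genes of the pathway were counted by role, where 1.98%, 13.8%, 19.8% and 15.9% of all genes were called at 2, 4, 6 and 8 months. Of 7 further IκB and related genes, Nfkbid, which encodes the nuclear protein IκBNS, was called higher at 2 months (0.86, SE 0.175, FDR 0.00326), 6 months (1.13, FDR 2.71e-05) and 8 months (0.88, FDR 0.00215), and Nkap lower at 8 months (-0.72, FDR 0.00284). Nfkbib, which encodes IκBβ, passed the FDR at 6 and 8 months (0.38 and 0.56) without reaching 1.5 fold. Of 6 IκB kinase and related genes, Tank, an adaptor of the related kinase TBK1, was called higher at 6 and 8 months (0.67 at both) and Ikbke, another kinase of that branch, at 8 months (0.84, FDR 0.0308), a call lost with the replicate block (FDR 0.0547). The core kinase genes were not called: Chuk was at -0.39 and -0.33 at 6 and 8 months, past the FDR but not the fold threshold, Ikbkb at -0.18 to 0.15 over the ages and Ikbkg at -0.26 to 0.1.

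Of 13 A20-binding proteins and other brakes on the pathway, 4 were called higher at 1 or more ages and 0 lower, where 14.1% of all genes were called higher. At the successive ages 1, 0, 4 and 2 of the 13 were called. Zc3h12a, which encodes the RNase Regnase-1 that degrades cytokine transcripts, was called at 2 months (0.67, FDR 0.0236), 6 months (0.76, FDR 0.00175) and 8 months (1.34, FDR 2.48e-05). Irak3, which encodes an inhibitory kinase-like protein of Toll-like receptor signalling, was called at 6 and 8 months (0.82 and 0.85). Tnip3 (1.04) and Rnf11 (0.59) were called at 6 months, Tnip3 not with the replicate block (FDR 0.0537). Of 10 genes of the non-canonical arm limma called 0 at each age, with or without the replicate block. Without the block 1.98%, 13.8%, 19.8% and 15.9% of all genes were called at the successive ages, so few calls would be looked for among 10 genes. At an unadjusted P under 0.05 they numbered 2, 3, 2 and 1, against 16.5%, 33.6%, 43% and 35.4% of all genes. Their medians were 0.16, -0.11, -0.08 and 0.13. Map3k14, which encodes the kinase NIK of that arm, was at -0.23 to 0.12.

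Of 28 textbook target genes of NF-κB other than the 10, 20 were called higher at 1 or more ages, 0 lower and 8 at no age. At 2, 4, 6 and 8 months 8, 16, 15 and 18 were called higher, where 1.58%, 9.47%, 11.3% and 10.5% of all genes were, with medians of 0.38, 0.81, 0.82 and 0.91. The study had itself named several of these genes on the same samples, among them Il1b, Ccl3, Ccl4, Csf1 and Gadd45b, so the list is not independent evidence of its direction. Ranked by the highest value at any age, the largest rises were those of Csf1, the growth factor of microglia and macrophages (1.88, 3.87, 3.7 and 3.53), Gadd45b, a stress sensor that NF-κB induces (1.35, 2.84, 3 and 3.37), and Il12b, which encodes the p40 chain of interleukin-12 (0.34, not called, then 1.66, 1.82 and 3.15). At 2 months Il12b averaged 2.69 in rTg4510 and 2.35 in WT, near the lowest value of a library (1.23 to 1.92). The size of its fold change therefore depends on how such low values were made. Csf1 and Gadd45b were among the 8 genes called at 2 months, an age at which limma called 0 of the 10 subunit and inhibitor genes. With the replicate block 9 of the 28 target genes and 3 of the 10 were called at that age. Whether the lists differ was not tested.

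**Figure D4:**
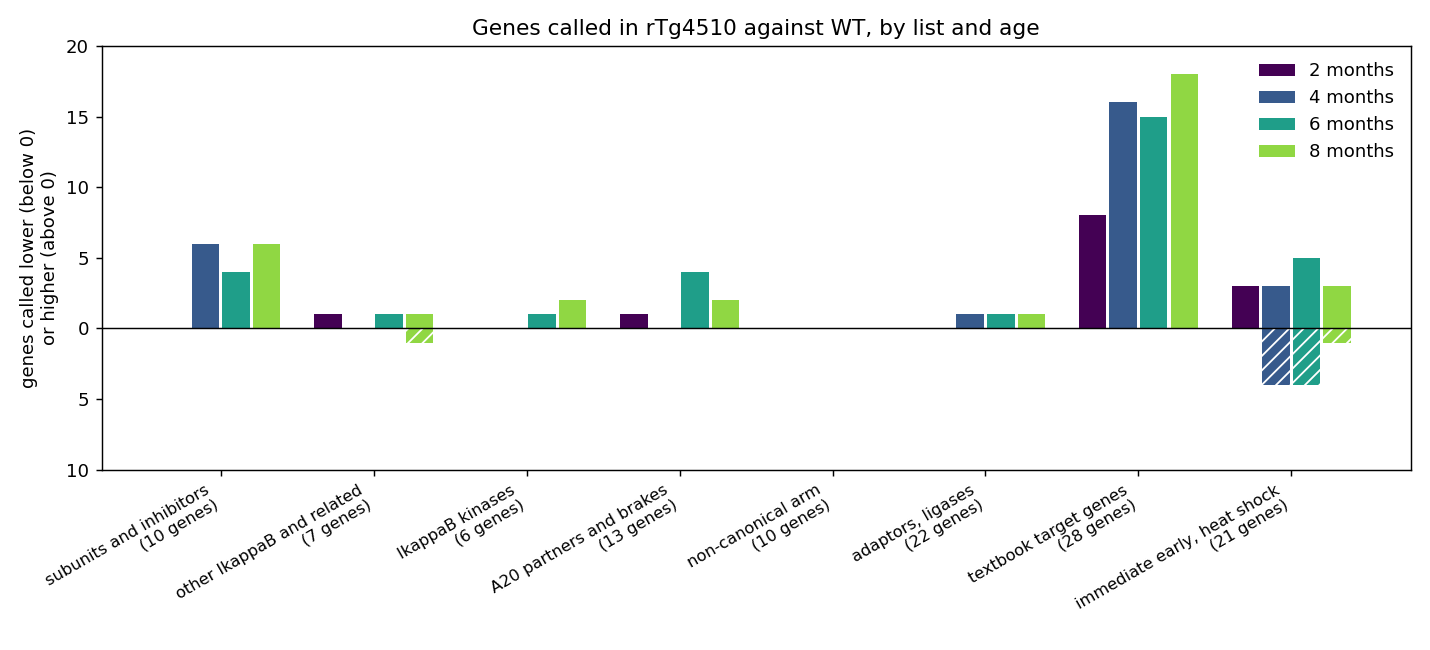
Number of genes called higher (bars above 0) or lower (hatched bars below 0) in rTg4510 against WT for 8 lists of pathway genes at 2, 4, 6 and 8 months, with the size of each list under its name. The 10 subunit and inhibitor genes have 0, 6, 4 and 6 called higher, the 28 target genes 8, 16, 15 and 18, and the 10 genes of the non-canonical arm none.

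The calls at 4 months depended most on single libraries. Without rTg4510 replicate 4 of 4 months the count fell from 6 to 3, as Relb (log2 0.58), Nfkbiz (FDR 0.0873) and Tnfaip3 (FDR 0.07) were no longer called. Without WT replicate 2 of 4 months Nfkbiz (FDR 0.102) and Bcl3 (FDR 0.127) were lost, without rTg4510 replicate 1 Bcl3 (FDR 0.117) and without WT replicate 1 Nfkb2 (log2 0.58). At 2 months leaving out WT replicate 1 called Nfkbia, Nfkbiz and Tnfaip3 (FDR 0.0495, 0.0457 and 0.0324). Leaving out any 1 of the 28 libraries kept 4 or 5 genes called at 6 months and 6 or 7 at 8 months.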

How the data were processed

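Microglia RNA of 32 libraries, from rTg4510 and WT mice at 4 ages with 4 biological replicates each, had been sequenced after cDNA amplification. The authors summed exon reads per library, left out exons with low counts in most samples, summarised exons to genes by robust linear modelling, and deposited median normalized log2 signals. The build in the submitters' notes is GRCm38, and the aligner is not given in the sources used here. Whether reads shared by similar genes were counted is likewise not given. The table holds no counts or read totals, and no interval for counting error was computed. Genes are listed by Entrez number, of which 17828 (95.9%) matched RefSeq symbols of GRCm38.p6.

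Computed here with limma 3.58.1 (R 4.3.3, the data.table package in version 1.17.8) were 8 group means per gene with unmoderated variances (20 degrees of freedom), as the study's Methods describe, over the 28 libraries that the authors kept. P values are two-sided and adjusted over 18588 genes within a contrast, and genes were called at an FDR under 0.05 and above 1.5 fold. Alternatives were a replicate block, moderated variances, all 32 libraries, only the groups compared, quantile normalization, genes above the 25th percentile, a pseudocount of 8, the FDR alone and leaving out each library. Named besides the 10 genes were the largest rises and falls called in each list and the 5 genes most correlated with each of the 10. The 10 genes and the lists were chosen with earlier results of these data known. Chuk, Ikbkb, Ikbkg, Nfkbib, Map3k14, Dusp1, Klf6 and further genes of short lists of calls were named after their values were seen. Promoters and figures were handled with Python 3.11.15, numpy 2.4.6, pandas 2.3.3 and matplotlib 3.10.9.

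Both genotypes carry the same replicate numbers, and the labels do not say what a number marks. After group means were removed, libraries with the same number correlated over all genes at 0.131 to 0.153 at 6 months and 0.15 to 0.291 at 8 months. This was above the other pairs (highest 0.0913 and -0.0281), so the numbers were taken to pair the libraries there, on the values alone. The main fit and the permutation test nevertheless leave the pairing out. At 6 months the SE without and with the block was 0.254 and 0.113 for Tnfaip3 and 0.277 and 0.16 for Nfkbia. For Nfkb2 it was 0.0952 and 0.115, and Nfkbie and Rel also had a larger SE with the block. Tested on simulated data of the 18588 genes, the model called 66, 52, 67 and 65 of 100 genes changed by a log2 of 1 at 2, 4, 6 and 8 months and 84, 86, 95 and 86 of 100 changed by 2, with 0 wrong signs. It also called 5, 3, 1 and 2 unchanged genes. Each simulation changed 200 genes, with independent noise. In the data 368, 2564, 3689 and 2950 genes were called, so these rates may not carry over.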

Additional observations from a re-analysis of the deposited data

Results flagged for a closer look

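Each of the 10 genes was examined in the 4 groups of 4 libraries (2 and 6 months) for a library that stood apart, by the gap to its nearest neighbour as a share of the range of the group. This picked out 3 of 40 combinations, where chance gives about 1 in 20. Nfkb2 read 4.31 in rTg4510 replicate 4 of 2 months, against 4.51 to 4.52 in the others (share 0.935). Relb read 4.56 in WT replicate 1 of 2 months, against 4.06 to 4.13 (share 0.853). Nfkbie read 7.05 in WT replicate 4 of 2 months, against 5.69 to 5.89 (share 0.852).

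The genotype difference changed with age for 3 genes by the test of the difference itself (limma, FDR alone), of which 1, *Bcl3*, also passed the fold threshold. For Bcl3 it was 1.67 larger on the log2 scale at 8 than at 2 months (SE 0.292, FDR 0.000774), for Nfkb2 0.52 larger at 8 than at 2 months (SE 0.145, FDR 0.0246, but 0.103 with the replicate block), and for Rel it changed by -0.45 between 2 and 4 months (SE 0.105, FDR 0.0115).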

How the results depend on the processing

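No result reversed under an alternative. Over single genes and alternatives, 4044 results kept their direction and their side of the threshold, 26 lost a call, 30 gained one, and 64 differences that were not called changed sign. The replicate block changed no call of the 10 genes between genotypes at 4, 6 and 8 months. Among the other lists it lost 5 calls at 6 and 8 months (Tnip3, Ikbke, Vcan, Ly6c2 and Ltf) and gained 10. At 2 months, where the replicate numbers were not taken to pair the libraries (same-numbered pairs correlated at 0.0649 to 0.167, and 7 of 8 libraries best with their own number, against 2 of 6 at 4 months), the block called 3 genes: Nfkbia (FDR 0.0101), Nfkbiz (FDR 0.0172) and Tnfaip3 (FDR 0.00258). With the block, 2 genes were called for a genotype difference that changed from 2 to 8 months, Tnfaip3 (FDR 0.0216) beside Bcl3, and with the number as a random effect Nfkbiz was called in rTg4510 at 8 against 2 months (FDR 0.0489). At 2 months 1 gene, Tnfaip3, was called with moderated variances or with genes above the 25th percentile alone.

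At 4 months the count of 6 fell to 3 with all 32 libraries, to 3 with a pseudocount of 8 (Nfkb2, Relb and Bcl3 lost in both) and to 1 when only the libraries of that age were fitted, which leaves fewer samples to estimate the spread. The last of these settings and the pseudocount of 8 each left 4 of 6 genes at 8 months. Genes above the 25th percentile leave out Nfkb2, Relb and Bcl3, so that 3 genes each were called at 4 and 8 months and 0 by limma for the change from 2 to 8 months. The FDR alone called 7 genes at 6 months, 1 and 2 genes for the change from 2 to 4 and from 2 to 8 months, and 1 and 5 genes in rTg4510 at 4 and 8 against 2 months. All 32 libraries and quantile normalization each called 2 genes for the change from 2 to 8 months, with Nfkb2 beside Bcl3. When each library was left out in turn, the counts at 2 months ranged from 0 to 3, those at 4 months from 3 to 6, those at 6 months from 4 to 5, those at 8 months from 6 to 7 and those of the change with age from 2 to 4 in rTg4510 at 8 against 2 months. Of these, Tnfaip3 was lost in rTg4510 at 8 against 2 months without rTg4510 replicate 1 or 2 of 8 months (FDR 0.0549 and 0.0728). Other causes were not tested. Fold changes of Bcl3, Nfkb2 and Relb, the lowest signals of the 10, depend most on the low end of the scale: with the pseudocount of 8 Nfkb2 and Relb stood at 0.58 each at 8 months.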

Other observations

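The 4 libraries that the authors excluded entered no comparison above other than the fits with all 32 libraries. In replicate 3 of 4 months Nfkbia read 11.18 in rTg4510 and 8.61 in WT, both above every kept library of the same genotype, while Rel read 8.27 and 8.08 and Nfkb1 6.26 and 6.4, both below every kept library. In replicate 4 of 8 months Nfkbia read 10.06 in rTg4510 and 8.43 in WT, and Bcl3 5.6 and 4.25. Bcl3 went the other way in replicate 3 of 4 months, with 3.25 in rTg4510 and 4.02 in WT. In both excluded pairs Nfkbia and Tnfaip3 were higher in rTg4510 than in WT (Tnfaip3 9.92 against 7.75, and 9.73 against 8.15).

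The genes of the whole table whose deviations from the group means were most like those of a gene, over 28 libraries and as a description only, differed between the inhibitors. For Nfkbiz they were Gm7993 (r = 0.964), Odc1 (0.961), Cxcl2 (0.959), Gm8783 (0.955) and Klf6 (0.954), for Tnfaip3 Rasgef1b (0.952), Ptp4a1 (0.943), Gm8783 (0.933), Btg1 (0.928) and Gm15801 (0.925), and for Nfkbia Snord22 (0.941), H2-Q5 (0.937), Hspa5 (0.934), 4833438C02Rik (0.933) and Ier3 (0.932). For Bcl3 the highest was Svbp (0.723), for Nfkb2 Dennd2a (0.747), for Nfkb1 Arhgap4 (0.876), for Rela Ipp (0.781), for Relb Rps4x-ps (0.762), for Rel Pcf11 (0.739) and for Nfkbie the gene with Entrez number 101055785 (0.73). Gm7993, Gm8783, Gm15801, H2-Q5 and Rps4x-ps are pseudogenes in RefSeq, and their values are uncertain where reads match another gene as well. 4833438C02Rik, which followed Nfkbia, is a long non-coding RNA gene inside the span of Nfkb2.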
